A study of Mus musculus with 18 samples.

Results

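The 42 mitosis genes described here are genes of the G2 and M phases of the cell cycle, given as a list of symbols. The rule for the list uses no measured value, but the list was chosen with earlier results of these data known. They were found among 55487 listed genes by matching each Ensembl identifier to its mouse symbol, and all 42 were present once and passed the filter on low counts. They encode CDK1 with its cyclins and CDC25 phosphatases (7 genes), other mitotic kinases (3), the chromosomal passenger complex (4), the spindle assembly checkpoint (5), centromere and kinetochore proteins (5), kinesins (6), spindle microtubule proteins (3), cytokinesis proteins (2), proteins of anaphase and mitotic exit (4), the transcription factor FOXM1 (1), and DNA topoisomerase II alpha with the proliferation antigen Ki-67 (2). All 42 had at least 165 counts in every library.

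The 18 RNA-seq libraries come from the mouse prostate adenocarcinoma line T23 and form 6 groups of 3. T23 cells had been cultured alone, next to wild type fibroblasts, or next to fibroblasts that are SPARC-deficient. A further group of T23 cells had received enzalutamide, an androgen receptor antagonist. The last 2 groups were co-cultures with fibroblasts under enzalutamide, one without and one with isoliquiritigenin, a chalcone found in liquorice. All groups share the T23 cells, and both fibroblast groups with enzalutamide share that drug, so isoliquiritigenin was only given on top of enzalutamide and fibroblasts. No dose, time or medium is given in the labels. They also do not state that replicates were separate cultures, or that fibroblasts were removed before RNA was taken. For the fibroblasts that were cultured with enzalutamide, the descriptions name human cells while the titles use the FIBROB6 name of the wild type co-culture, so a comparison of the treated with the untreated co-culture may also compare fibroblasts. Which fibroblasts these were cannot be told apart from the treatment. P-values therefore measure the spread between these libraries, which may be technical.

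Library totals were 16.1 to 26.7 M counts, with 18123 to 20154 genes detected. Replicate 2 of enzalutamide without fibroblasts stood apart, with 26.5% of its counts on ribosomal RNA, which left 11.8 M other counts, and with 4.06% of its counts on mitochondrial genes. Sparc stood at 2977 to 3101 CPM (a gene's counts for each M of TMM-scaled library size) with SPARC-deficient fibroblasts and at 3049 to 3092 CPM with wild type fibroblasts, so its level in this RNA does not check the genotype of the fibroblasts. For cell type markers, CPM are counts for each M of total counts, ribosomal RNA included, without TMM scaling. Of 9 epithelial markers 7 stayed under 1 CPM in all libraries, including Epcam, Cdh1, Krt8 and Krt18, while Krt7 and Krt19 reached 25.42 and 18.37 CPM. By contrast, 12 fibroblast and mesenchymal markers summed to 19220 to 35910 CPM, with 33590 to 34910 CPM in T23 cells alone. The RNA of the T23 cells thus held 7 of the 9 epithelial markers at under 1 CPM, and the fibroblast markers did not tell fibroblast RNA from T23 RNA. Of 7 leukocyte markers 6 stayed under 1 CPM in all libraries. The index that ends each title restarts after 16, which puts replicates 2 and 3 of fibroblasts with enzalutamide and all isoliquiritigenin libraries in a second numbering series.

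Cells enter mitosis when CDK1, bound to cyclin A or cyclin B, is activated by the CDC25 phosphatases. Polo-like and Aurora kinases then build the spindle, kinetochores attach chromosomes to it, and the checkpoint holds the anaphase-promoting complex inactive until all chromosomes are attached. CDC20 and UBE2C then let that complex mark securin and cyclin B for destruction, and separase opens the cohesin rings. Most of these genes are transcribed late in the cell cycle under the MuvB complex, B-MYB and FOXM1. In bulk RNA, fewer cells in G2 or M and less of these transcripts per cell cannot be told apart.

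In T23 cells alone the 42 genes summed to 4700.3 ± 62.4 CPM (SD, n = 3), and all were expressed. Per kilobase of exon, Top2a, the topoisomerase that untangles sister chromatids, had the highest level at 65.8 CPM per kb. Cdc20, the activator of the anaphase-promoting complex, followed at 59.5 CPM per kb, Ube2c, the ubiquitin-conjugating enzyme of that complex, at 49.3 CPM per kb, and Ccnb2 (cyclin B2) at 47.7 CPM per kb. Ccna2 (cyclin A2) stood at 43.4, Cdk1 at 41.4 and Mki67 (Ki-67) at 37.7 CPM per kb. At the low end were Cdc25c, the phosphatase that activates CDK1 at mitotic entry, at 3.17 CPM per kb, and Ndc80, the microtubule-binding kinetochore subunit, at 4.51 CPM per kb. A difference among the 6 groups passed the test (edgeR quasi-likelihood test, adjusted p under 0.05) for 38 of the 42 genes, against 54.3% of all 13600 genes tested. The 4 others were Ttk (adjusted p = 0.0627), Mad2l1 (0.084), Ccnf (0.123) and Nuf2 (0.314). The ratio of the highest to the lowest group mean ran from 1.115 for Nuf2 to 1.776 for Cenpa, with a median of 1.316.

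**Figure D1:**
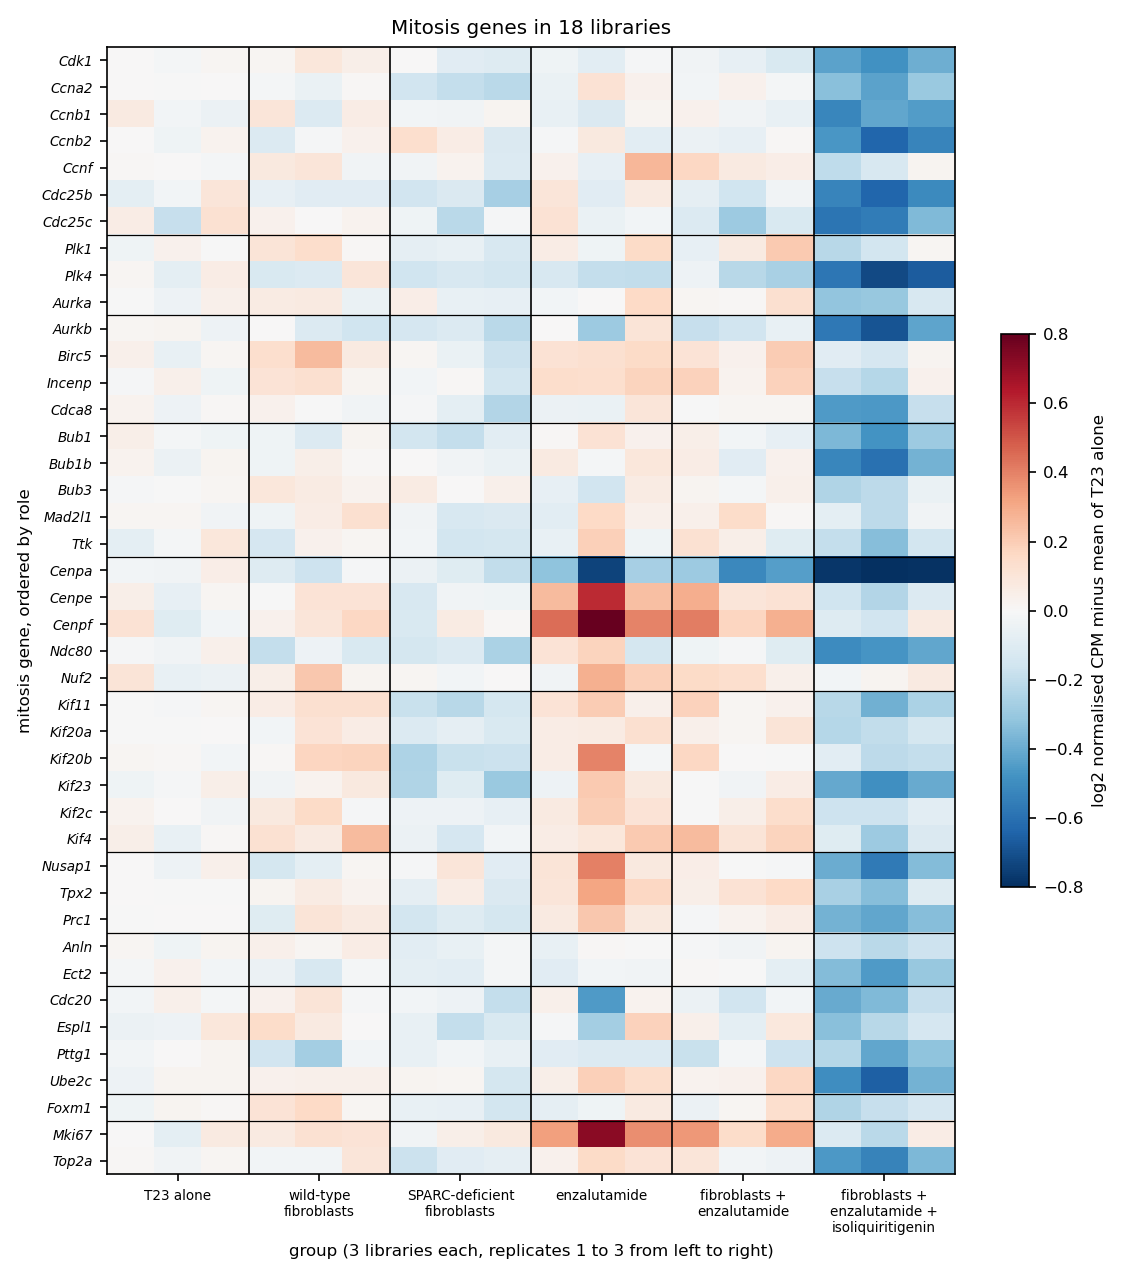
Log2 normalised CPM of the 42 mitosis genes in 18 libraries, each gene relative to its mean in T23 cells alone. Columns are libraries in replicate order within 6 groups, rows are genes by role, and the colour scale is clipped at -0.8 and 0.8. The 3 isoliquiritigenin columns are blue for nearly every gene, and under enzalutamide Cenpf, Mki67 and Cenpe are red and Cenpa is blue.

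The summed level of the 42 genes was 4820.5 ± 69.2 CPM in the wild type co-culture, 4455 ± 45.1 CPM in the SPARC-deficient co-culture, 5061.7 ± 186 CPM under enzalutamide, 4839.8 ± 123 with fibroblasts and enzalutamide, and 3823.5 ± 207 with isoliquiritigenin added (SD, n = 3). The isoliquiritigenin group had the lowest mean for 39 genes, and the group with SPARC-deficient fibroblasts had it for the other 3. The enzalutamide group had the highest mean for 21 genes. Among single libraries, replicate 2 of isoliquiritigenin was the lowest for 27 genes and replicate 1 for 11, while replicate 2 of enzalutamide, the library rich in ribosomal RNA, was the highest for 18.

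The largest changes came with isoliquiritigenin. When it was added to fibroblasts and enzalutamide, 39 of the 42 mitosis genes fell and none rose, against 26.5% of all genes called in either direction, 12.9% called higher and 13.6% called lower. The median log2 fold change of the 42 genes was -0.34, against -0.0001 over all 13600 genes, and it was negative for all 42. The ranges of both groups did not overlap for 39 of the 42 genes, all lower (20.6% of all genes did so), and for 23 genes the 3 isoliquiritigenin libraries lay below the other 15 libraries (10.1% of all genes). The changes were small, 1.13-fold (Anln) to 1.499-fold (Ube2c) among the genes that fell. The isoliquiritigenin libraries held 2.80 to 3.77% mitochondrial counts against 1.55 to 2.71% in the group without it. The 12 fibroblast and mesenchymal markers summed to 24430 to 24630 CPM with isoliquiritigenin and to 28340 to 30170 CPM without it. Of these markers 11 were over 1 CPM in some library. Col1a1, Col1a2, Col3a1 and Vim made up most of the sum, and their means were lower with isoliquiritigenin. Means were higher with isoliquiritigenin for Pdgfra (1425 against 1146 CPM), Pdgfrb (334.8 against 282.3 CPM) and Postn (744 against 730.4 CPM), and lower for the rest. The 9 epithelial markers, among which Krt7 and Krt19 made up most of the sum, stood at 5.119 to 6.493 CPM with it and at 15.95 to 19.88 CPM without it. The part of these differences in the result was not tested.

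**Figure D2:**
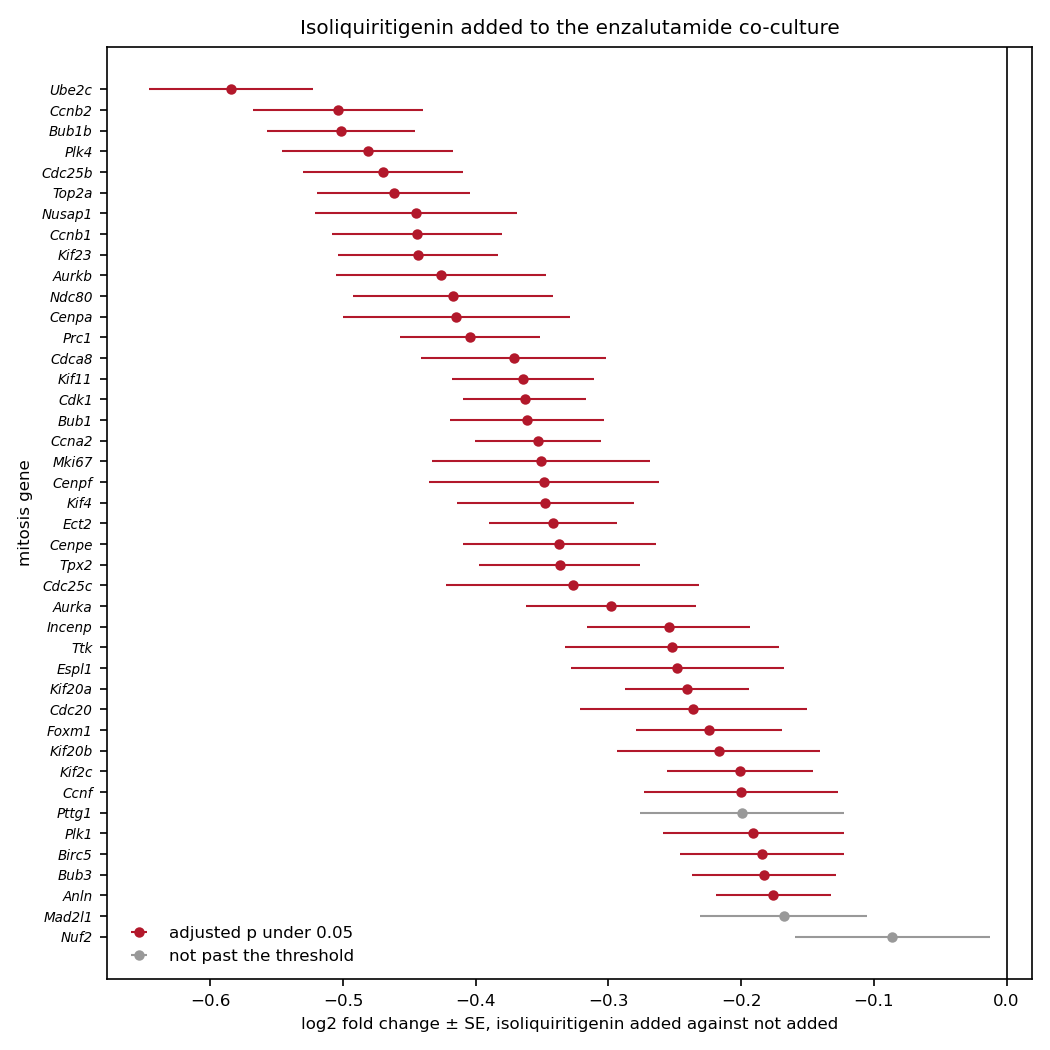
Log2 fold change ± SE of each of the 42 mitosis genes when isoliquiritigenin was added to fibroblasts and enzalutamide, 3 libraries against 3, sorted by value. Red points passed the test at an adjusted p under 0.05 and grey points did not; all 42 points lie left of 0, from -0.58 for Ube2c to -0.09 for Nuf2.

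Ube2c, on chromosome 2 (164769898 to 164778822, plus strand, GENCODE M21 on GRCm38), changed most. It stood at 130.8, 131.5 and 143.8 CPM in the 3 libraries with fibroblasts and enzalutamide and at 90.7, 81.4 and 98.5 CPM with isoliquiritigenin. The other 12 libraries ran from 116.3 CPM, in a library with SPARC-deficient fibroblasts, to 146.6 CPM in the enzalutamide group, so the 3 isoliquiritigenin libraries lay below all others. The log2 fold change was -0.58 ± 0.06 (SE, adjusted p = 1.68e-07). Set against only the 2 libraries without the compound in the second numbering series, it was -0.61 (adjusted p = 9.6e-07). The other groups stayed in that fit and shared its spread.

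The other genes of anaphase and mitotic exit changed less. Cdc20 stood at 107.6, 99.8 and 109.2 CPM without and at 84.1, 87.0 and 97.8 CPM with isoliquiritigenin, and fell by 0.24 on the log2 scale (SE 0.09, adjusted p = 0.0441). Its ranges were close, 99.8 CPM at the lowest without and 97.8 CPM at the highest with the compound. Espl1, which encodes separase, fell by 0.25 (SE 0.08, adjusted p = 0.0243). Pttg1, which encodes its inhibitor securin, had a log2 fold change of -0.20 ± 0.08 that did not pass (adjusted p = 0.057). The calls of Cdc20 and Espl1 were lost when replicate 1 or 2 of isoliquiritigenin or replicate 1 or 3 without it was left out, with adjusted p of 0.116 to 0.163 for Cdc20 and 0.0643 to 0.122 for Espl1.

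All 7 genes of mitotic entry fell, with a median log2 fold change of -0.36. Ccnb2 stood at 70.7, 69.8 and 73.4 CPM without and at 52.9, 47.1 and 50.7 CPM with isoliquiritigenin. Its fall of 0.50 on the log2 scale (SE 0.06, adjusted p = 2.38e-06) was the largest of the group, and every isoliquiritigenin library lay below the 67.4 CPM that was lowest elsewhere. Cdk1, the kinase itself, stood at 200.1, 195.3 and 187.4 CPM without and at 151.9, 145.8 and 155.4 CPM with the compound (log2 fold change -0.36 ± 0.05, adjusted p = 2.38e-06). Cdc25b, a CDC25 phosphatase that starts CDK1 activation, stood at 90.1, 85.0 and 93.2 CPM without and at 65.9, 61.0 and 66.7 CPM with it (-0.47 ± 0.06, adjusted p = 2.57e-06). In Cdk1 and Cdc25b too, the isoliquiritigenin libraries lay below the other 15. Ccnb1 (cyclin B1) fell by 0.44 and Ccna2 by 0.35 on the log2 scale. Ccna2 stood at 174.1, 181.4 and 175.5 CPM without and at 140.2, 131.5 and 143.9 CPM with the compound, again below all other libraries. Cdc25c fell by 0.33 and Ccnf, which encodes the F-box protein cyclin F, by 0.20, and these 2 calls were lost when single libraries were left out, with adjusted p of 0.0565 to 0.0627 and 0.0564 to 0.193.

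Among the mitotic kinases, Plk4, the kinase of centriole duplication, fell most, by 0.48 (SE 0.06, adjusted p = 4.69e-06). It stood at 83.3, 73.7 and 71.5 CPM without and at 57.5, 52.1 and 54.0 CPM with isoliquiritigenin. Aurka (Aurora A, a kinase of the spindle poles) fell by 0.30. Plk1, the polo-like kinase of spindle assembly, fell by 0.19 (SE 0.07, adjusted p = 0.0406), although its ranges overlapped. Its values were 70.5, 77.8 and 85.7 CPM without and 63.5, 66.8 and 74.7 CPM with the compound, and the call was lost without 1 of 4 libraries (adjusted p of 0.0853 to 0.26).

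The 4 genes of the chromosomal passenger complex, which corrects wrong kinetochore attachments, all fell, but unequally. Aurkb, the kinase subunit Aurora B, fell by 0.43 (SE 0.08, adjusted p = 0.000252), from 56.2, 57.2 and 61.1 CPM to 42.8, 39.4 and 47.6 CPM. Cdca8, the borealin subunit, fell by 0.37. The scaffold gene Incenp fell by 0.25 (SE 0.06, adjusted p = 0.00293), with overlapping ranges of 122.4 to 135.9 CPM and 102.4 to 122.8 CPM. Birc5 (survivin) fell by 0.18, and that call was lost without 1 of 4 libraries (adjusted p of 0.0648 to 0.159).

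Of the 5 checkpoint genes 4 fell. Bub1b, whose product BUBR1 inhibits the anaphase-promoting complex, stood at 111.6, 100.7 and 109.9 CPM without and at 74.5, 70.7 and 82.3 CPM with isoliquiritigenin (log2 fold change -0.50 ± 0.06, adjusted p = 3.66e-07). No other library held less than 100.7 CPM of Bub1b. The kinase gene Bub1 fell by 0.36, Ttk, which encodes the checkpoint kinase MPS1, by 0.25, and Bub3, which encodes the partner of BUB1 and BUBR1, by 0.18. Bub3 stood at 126.8, 123.8 and 128.7 CPM without and at 105.6, 108.2 and 120.5 CPM with the compound. Mad2l1, which encodes the MAD2 inhibitor of CDC20, stood at 73.01, 78.67 and 71.41 CPM without and at 67.3, 61.5 and 69.7 CPM with it. Its difference of -0.17 ± 0.06 did not pass (adjusted p = 0.0521), although the ranges did not overlap.

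Of the 5 centromere and kinetochore genes 4 fell. Ndc80 fell by 0.42 (SE 0.08, adjusted p = 0.000185) and Cenpa, the histone H3 variant of centromeres, by 0.41 (SE 0.09, adjusted p = 0.000715). Nuf2, the partner of Ndc80 in the same complex, did not pass, with 42.8, 42.3 and 39.6 CPM without and 37.9, 39.1 and 40.5 CPM with isoliquiritigenin (-0.09 ± 0.07, unadjusted p = 0.254). Nuf2 had the smallest change of the 42 genes, and whether it differs from that of Ndc80 was not tested. Cenpe, the kinesin of the kinetochore, fell by 0.34 (SE 0.07, adjusted p = 0.0011), and Cenpf, a large protein of the outer kinetochore, by 0.35 (SE 0.09, adjusted p = 0.00387). In the 3 libraries with fibroblasts and enzalutamide, both lay above T23 cells alone. Cenpe stood at 149.1 to 170.7 against 133.5 to 144.2 CPM, and Cenpf at 102.5 to 120.8 against 85.2 to 98.6 CPM. That group was not tested against T23 cells alone.

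All 6 kinesin genes, all 3 genes of spindle microtubule proteins and both cytokinesis genes fell. Kif23, a subunit of centralspindlin at the midzone, fell by 0.44 (SE 0.06, adjusted p = 5.68e-06), from 95.8, 94.1 and 99.8 CPM to 72.2, 68.2 and 72.5 CPM. Kif11, the motor that pushes spindle poles apart, fell by 0.36 (SE 0.05, adjusted p = 1.57e-05), and Kif4, a chromosome-bound kinesin, by 0.35. Kif20a fell by 0.24, Kif20b by 0.22 and Kif2c by 0.20. Prc1, which bundles antiparallel microtubules, fell by 0.40 (SE 0.05, adjusted p = 3.27e-06), Nusap1 by 0.45 and Tpx2, which activates Aurora A, by 0.34. Tpx2 stood at 156.3, 164.3 and 169.5 CPM without and at 126.9, 119.8 and 141.4 CPM with isoliquiritigenin. Ect2, which activates RhoA for the cleavage furrow, fell by 0.34 (SE 0.05, adjusted p = 9.58e-06), and Anln (anillin) by 0.18 (SE 0.04, adjusted p = 0.00362).

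Top2a fell by 0.46 on the log2 scale (SE 0.06, adjusted p = 1.89e-06), from 635.2, 584.4 and 575.6 CPM to 432.2, 409.1 and 462.1 CPM. The lowest of the other 15 libraries, one with SPARC-deficient fibroblasts, held 525.9 CPM. Mki67 fell by 0.35 (SE 0.08, adjusted p = 0.00238), from 481.5, 419.5 and 464.5 CPM to 351.4, 325.6 and 393.9 CPM. Those levels overlapped the 358.8 to 398.6 CPM of T23 cells alone. Foxm1, which encodes a transcription factor of G2 and M genes, fell by 0.22 (SE 0.05, adjusted p = 0.00343), from 109.5, 114.3 and 124.0 CPM to 95.4, 99.6 and 102.9 CPM. Across the 13 alternatives tried, 29 of the 39 calls were kept in all, and 10 were lost in at least 1: Birc5, Bub3, Ccnf, Cdc20, Cdc25c, Espl1, Kif20b, Kif2c, Plk1 and Ttk. Leaving out replicate 2 of isoliquiritigenin lost 9 calls and replicate 1 lost 7, replicates 1 and 3 of fibroblasts with enzalutamide lost 7 each, replicate 2 of that group lost 3 and replicate 3 of isoliquiritigenin 1, with adjusted p of 0.0522 to 0.26 for the lost calls. Leaving out replicate 1 of fibroblasts with enzalutamide puts both groups compared in the second numbering series. In that fit, already counted above, 32 of the 42 genes were called lower.

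**Figure D3:**
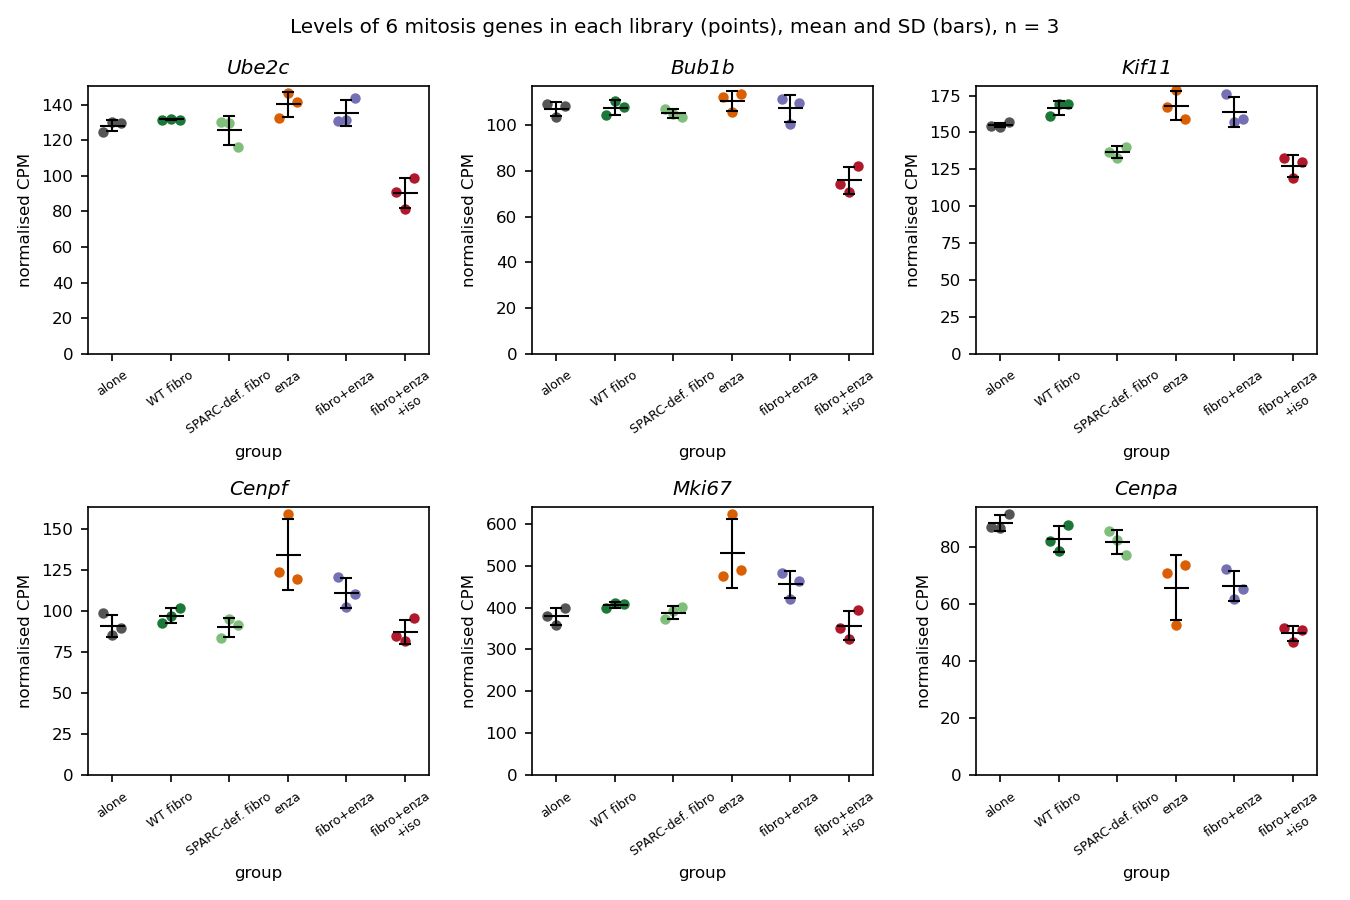
Normalised CPM of Ube2c, Bub1b, Kif11, Cenpf, Mki67 and Cenpa in each of 18 libraries by group, with axes from 0. Points are libraries, and bars give the mean and SD of 3. Ube2c and Bub1b are lowest in the 3 isoliquiritigenin libraries, and Kif11 is low with isoliquiritigenin and with SPARC-deficient fibroblasts. The means of Cenpf and Mki67 are highest with enzalutamide without fibroblasts and lowest with isoliquiritigenin, and Cenpa lies below T23 cells alone in all 3 groups that received enzalutamide.

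Because the genes moved together, their promoters are shown for the 5 with the smallest p and a known start in the RefSeq table, and for Nuf2, the least changed gene. Each is the 200 bases before the RefSeq start on GRCm38.p6, 5′ to 3′ on the gene's strand. Capitals mark the letters of the cell cycle genes homology region (CHR: TTTGAA or TTCGAA, on either strand, so also TTCAAA) and of CCAAT (or ATTGG), which MuvB complexes and NF-Y are known to bind. The intervals are chr2:164769729-164769928 (Ube2c, plus), chr2:118598011-118598210 (Bub1b, plus), chr11:99024190-99024389 (Top2a, minus), chr10:69352913-69353112 (Cdk1, minus), chr9:70421555-70421754 (Ccnb2, minus) and chr1:169531465-169531664 (Nuf2, minus).
Ube2c: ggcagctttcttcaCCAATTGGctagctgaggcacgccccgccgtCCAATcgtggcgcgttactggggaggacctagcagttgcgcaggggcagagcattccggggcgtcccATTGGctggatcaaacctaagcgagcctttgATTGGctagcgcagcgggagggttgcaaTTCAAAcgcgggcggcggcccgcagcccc
Bub1b: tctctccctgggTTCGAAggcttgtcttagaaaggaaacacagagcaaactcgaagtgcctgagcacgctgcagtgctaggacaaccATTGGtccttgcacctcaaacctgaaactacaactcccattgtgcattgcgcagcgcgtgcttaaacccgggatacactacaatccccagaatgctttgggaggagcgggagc
Top2a: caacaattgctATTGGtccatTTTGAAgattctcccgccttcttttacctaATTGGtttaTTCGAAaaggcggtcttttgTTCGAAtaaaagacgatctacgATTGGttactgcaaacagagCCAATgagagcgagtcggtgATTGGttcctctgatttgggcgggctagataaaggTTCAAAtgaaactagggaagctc
Cdk1: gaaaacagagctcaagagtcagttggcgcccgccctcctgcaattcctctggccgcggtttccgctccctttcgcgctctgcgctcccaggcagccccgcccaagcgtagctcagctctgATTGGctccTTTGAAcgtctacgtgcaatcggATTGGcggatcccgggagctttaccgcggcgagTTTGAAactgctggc
Ccnb2: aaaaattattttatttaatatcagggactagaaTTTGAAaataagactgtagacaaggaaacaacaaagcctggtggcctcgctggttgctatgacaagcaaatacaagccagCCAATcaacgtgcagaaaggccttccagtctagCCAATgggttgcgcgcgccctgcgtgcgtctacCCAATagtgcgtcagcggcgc
Nuf2: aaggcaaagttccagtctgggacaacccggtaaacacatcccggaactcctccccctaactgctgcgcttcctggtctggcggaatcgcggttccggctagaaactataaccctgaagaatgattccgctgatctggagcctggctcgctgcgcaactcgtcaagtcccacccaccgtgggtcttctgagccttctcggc

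In these windows Top2a carries 4 matches to the CHR letters and 5 to CCAAT, Ube2c 1 and 5, Cdk1 2 and 2, Ccnb2 1 and 3, Bub1b 1 and 1, and Nuf2 none. In Ube2c a CCAAT and an ATTGG overlap in CCAATTGG and were both counted. The printed bases end at the start, and further CHR letters begin at base 5 after it in Ccnb2 and at base 41 in Bub1b. Of the 42 genes 35 had an entry in the RefSeq table. In windows from 250 bases before to 50 after the start, CHR letters occurred in 27 of these 35 (77.1%), against 21.7% of all 27025 genes. A gene counted if any of its windows held the letters. CCAAT letters occurred in 25 of 35 (71.4%), against 41.1% of all genes, counted in the same way. All 27 genes with CHR letters fell with isoliquiritigenin, with a median log2 fold change of -0.35. Of the 8 without them, Ccnb1, Plk4, Birc5, Cenpe and Nusap1 fell and Mad2l1, Nuf2 and Pttg1 did not pass, with a median of -0.27. Both ranges overlapped, -0.58 to -0.18 with and -0.48 to -0.09 without the letters. These matches describe letters in a window, and the difference between both sets of genes was not tested.

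With SPARC-deficient in place of wild type fibroblasts, 8 of the 42 genes fell and none rose, against 11.5% of all genes called in either direction, 6.72% called higher and 4.79% called lower. The median log2 fold change was -0.10, against -0.0054 over all genes, and 38 of 42 values were negative. The ranges of both groups were apart, lower with SPARC-deficient fibroblasts, for 23 of the 42 genes (14.8% of all genes). Of the 8 genes that fell, 5 are among the 6 genes grouped here as kinesins, while Cenpe, a kinesin grouped with the kinetochore genes, did not pass (adjusted p = 0.262). Kinesins were not tested against the other members. Marker sums moved in the same comparison. They went to 42.16 to 44.07 CPM from 26.26 to 28.9 CPM for the 9 epithelial markers, through Krt7 and Krt19. For the 12 fibroblast and mesenchymal markers they went to 34740 to 35910 CPM from 32370 to 33470 CPM. Among these, means were higher for Col1a1 (12020 against 10940 CPM), Col3a1 (5757 against 5078 CPM) and others, but lower for Pdgfrb, Fap, Postn and Acta2. The part of these differences in the result was not tested.

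Kif11 stood at 161.2, 169.3 and 169.5 CPM with wild type and at 136.9, 132.7 and 140.3 CPM with SPARC-deficient fibroblasts, a log2 fold change of -0.29 ± 0.05 (SE, adjusted p = 0.000843). T23 cells alone lay between, at 153.7 to 156.8 CPM. Kif20b, a kinesin of late cytokinesis, stood at 94.96, 106.68 and 106.86 CPM with wild type and at 79.6, 83.5 and 84.0 CPM with SPARC-deficient fibroblasts (-0.32 ± 0.08, adjusted p = 0.00692). These 2 calls were kept in all 13 alternatives. Kif23 fell by 0.24 (adjusted p = 0.0115), from 93.8, 97.8 and 101.0 CPM to 81.2, 89.4 and 78.0 CPM. Kif4 fell by 0.22 (adjusted p = 0.035) and Kif20a, which carries the passenger complex to the midzone, by 0.15 (adjusted p = 0.0373). Kif2c, which depolymerises microtubules, had a log2 fold change of -0.12 that did not pass.

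The other 3 genes that fell have other roles. Birc5 fell from 76.9, 83.6 and 73.6 CPM to 70.9, 67.7 and 62.2 CPM (log2 fold change -0.22 ± 0.06, adjusted p = 0.0206). Ccna2 fell from 174.9, 170.5 and 178.3 CPM to 159.1, 155.4 and 152.4 CPM (-0.17 ± 0.05, adjusted p = 0.024). Foxm1 fell from 121.8, 126.1 and 113.9 CPM to 108.2, 107.8 and 101.9 CPM (-0.19 ± 0.05, adjusted p = 0.0272). No range of these 3 genes overlapped, and the falls were 1.12- to 1.17-fold. Prc1, at -0.16, just missed the threshold (adjusted p = 0.051). The count was 5 without replicate 1 or 2 of the wild type co-culture and 4 without replicate 3, 3 without replicate 2 of the SPARC-deficient co-culture, and 2 without its replicate 3.

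Against T23 cells alone, SPARC-deficient fibroblasts came with 3 of the 42 genes lower and none higher, where 9.74% of all genes were called, 6.1% higher and 3.65% lower. Both comparisons share the SPARC-deficient libraries. Ccna2 had a log2 fold change of -0.19 (adjusted p = 0.0128), Kif23 of -0.21 (0.027) and Kif11 of -0.18 (0.0321). Ccna2 stood at 177.2, 176.5 and 177.5 CPM in T23 cells alone, above all 3 libraries with SPARC-deficient fibroblasts. Each of these 3 calls was lost in at least 1 alternative, and none of the 3 remained without replicate 1 of T23 cells alone or replicate 3 of the SPARC-deficient co-culture.

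None of the 42 genes was called with wild type fibroblasts against T23 cells alone (edgeR), where 0.515% of all genes were called, 0.257% in each direction. At an unadjusted p under 0.05 there were 2, and DESeq2 called 0. Those 2 were Birc5, with a log2 fold change of 0.16 (adjusted p = 0.364), and Kif4, with 0.15 (adjusted p = 0.434). Birc5 stood at 72.2, 67.3 and 70.9 CPM alone and at 76.9, 83.6 and 73.6 CPM with wild type fibroblasts. The ranges did not overlap for 8 genes that were higher and 1 that was lower (10.6 and 9.85% of all genes).

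**Figure D4:**
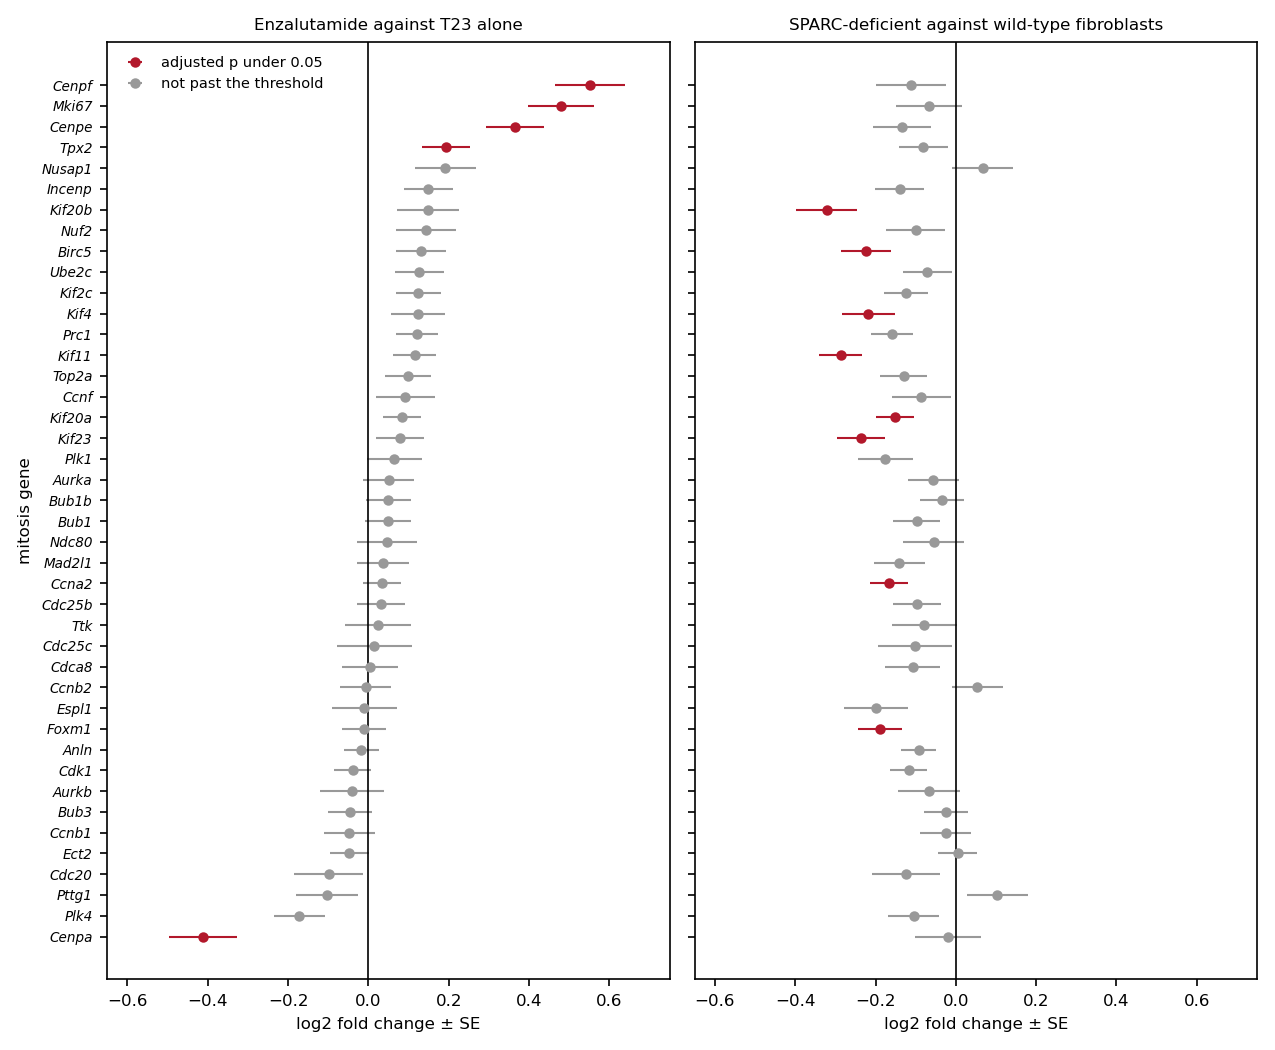
Log2 fold change ± SE of the 42 mitosis genes with enzalutamide against T23 cells alone (left) and with SPARC-deficient against wild type fibroblasts (right), 3 libraries against 3, both sorted by the left panel. Red points passed the test at an adjusted p under 0.05. On the left Cenpf, Mki67 and Cenpe lie apart at the top and Cenpa at the bottom, while Tpx2 lies beside Nusap1, which did not pass. On the right 38 of 42 points lie below 0.

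Enzalutamide without fibroblasts raised 4 of the 42 genes and lowered 1, a share of 11.9%. Of all genes 12% were called in either direction, 6.84% higher and 5.19% lower, so the share was about that of all genes. The median log2 fold change of the 42 genes was 0.05, against 0.0003 over all genes. The enzalutamide libraries held 1.88 to 4.06% mitochondrial counts against 0.824 to 1.11% in T23 cells alone. Fibroblast and mesenchymal markers summed to 19220 to 31110 CPM against 33590 to 34910 CPM, and epithelial markers to 13.91 to 19.72 CPM against 21.1 to 24.1 CPM. These marker CPM are not TMM-scaled, so the 26.5% ribosomal RNA in replicate 2 of enzalutamide lowers its sums. The part of these differences in the changes was not tested. Cenpf rose most, from 98.6, 85.2 and 89.5 CPM in T23 cells alone to 124.1, 159.3 and 119.9 CPM (0.55 ± 0.09, adjusted p = 0.00017). Mki67, whose product coats mitotic chromosomes, rose from 379.9, 358.8 and 398.6 CPM to 475.7, 623.8 and 489.1 CPM (0.48 ± 0.08, adjusted p = 4e-04). Cenpe rose from 144.2, 133.5 and 141.3 CPM to 166.0, 210.8 and 164.9 CPM (0.36 ± 0.07, adjusted p = 0.0017). In each of these genes replicate 2 of enzalutamide was the highest of the 18 libraries, and the other 2 enzalutamide libraries also lay above T23 cells alone.

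Cenpa went the other way, from 86.9, 86.7 and 91.6 CPM to 70.8, 52.8 and 73.7 CPM (-0.41 ± 0.08, adjusted p = 0.00223), again with replicate 2 the farthest. Without that library Cenpf was higher by 0.42 (adjusted p = 0.000233), Mki67 by 0.35 (0.000496) and Cenpe by 0.24 (0.00721), and Cenpa had a log2 fold change of -0.29 (0.00407). Tpx2 rose by 0.19 (SE 0.06, adjusted p = 0.0386), from 151.8, 151.5 and 151.4 CPM to 162.3, 188.6 and 170.2 CPM. Its call was lost without replicate 2 of enzalutamide (0.13, adjusted p = 0.181) and without any 1 replicate of T23 cells alone (adjusted p of 0.0993 to 0.11). Genes of mitotic entry, the checkpoint, anaphase and cytokinesis did not pass: none of their 18 genes was called. The 3 mitotic kinases, 4 genes of the chromosomal passenger complex, 6 kinesins and Foxm1 were not called either.

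Fold changes under enzalutamide moved weakly with exon length over all genes. Among the called genes, merged exons measure 15433 bp in Cenpf, 10061 bp in Mki67, 8620 bp in Cenpe and 4677 bp in Tpx2, against 5860 bp in Cenpa, which fell. Cenpf and Mki67 have the longest merged exons of the 42 genes. The next longest, Anln (9063 bp), Top2a (9013 bp) and Espl1 (8749 bp), were not called. Across genes, which are not independent replicates, Spearman's rho between log2 fold change and exon length was 0.171 over 13591 genes and 0.215 over the 42. Pearson's r with log2 exon length was 0.377 over the 42. The median log2 fold change was -0.0285 in the decile of genes with the shortest exons (57 to 1496 bp) and 0.0845 in the decile with the longest (9802 to 123179 bp). The part of transcript length in these results was not tested.

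With fibroblasts present, Cenpa was called lower with enzalutamide and no other of the 42 genes was called. Of all genes 7.18% were called, 3.7% higher and 3.49% lower. Cenpa stood at 82.2, 78.8 and 87.7 CPM with wild type fibroblasts and at 72.2, 61.7 and 65.3 CPM with fibroblasts and enzalutamide (-0.32 ± 0.08, adjusted p = 0.0197). The ranges did not overlap. Mitochondrial counts were 1.55 to 2.71% with and 0.853 to 1.34% without enzalutamide in these co-cultures. Fibroblast and mesenchymal markers summed to 28340 to 30170 CPM against 32370 to 33470 CPM. Among them Col1a1, Col1a2, Vim, Dcn and Postn had lower means with enzalutamide, while Col3a1, Pdgfra, Pdgfrb, Acta2 and Fap had higher means. Epithelial markers summed to 15.95 to 19.88 CPM against 26.26 to 28.9 CPM. The part of these differences in the result was not tested. The call was lost with the numbering series as a term (-0.20, adjusted p = 0.519), within the first numbering series alone (-0.20, adjusted p = 0.58), which leaves 1 treated library, and when any of 4 single libraries was left out (adjusted p of 0.0557 to 0.134). Cenpf, at 93.0, 97.1 and 101.8 CPM without and 120.8, 102.5 and 110.7 CPM with enzalutamide, had a log2 fold change of 0.19 that did not pass (adjusted p = 0.2). Mki67 had one of 0.16 (adjusted p = 0.267).

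The enzalutamide responses with and without fibroblasts were compared by an interaction term, which called none of the 42 genes and 0.0221% of all genes, 0.0147% higher and 0.00735% lower. At an unadjusted p under 0.05 there were 3 genes, Cenpf (-0.36 ± 0.12, adjusted p = 0.759), Mki67 (-0.32 ± 0.12, 0.759) and Cenpe (-0.27 ± 0.10, 0.762), and DESeq2 called 0. With fibroblasts under enzalutamide, against enzalutamide alone, none of the 42 genes was called, where 2.08% of all genes were, 1.14% higher and 0.941% lower. There 4 genes had an unadjusted p under 0.05, all lower with fibroblasts, and DESeq2 called 0. They were Cenpf (-0.26, adjusted p = 0.127), Cenpe (-0.20, 0.193), Mki67 (-0.22, 0.202) and Nusap1 (-0.18, 0.28). These comparisons share the enzalutamide libraries, replicate 2 among them.

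Genes of related steps of the cell cycle were read from lists that share no gene with the 42. Of 73 other mitosis genes 42 fell with isoliquiritigenin and none rose (57.5%, against 13.6% of all genes called lower), with a median log2 fold change of -0.29. The 3 with the smallest p were Spag5, which encodes the spindle protein astrin (-0.47 ± 0.06, adjusted p = 2.55e-06), Racgap1, the partner of Kif23 in centralspindlin (-0.40 ± 0.05, 4.09e-06), and Ckap5, a microtubule polymerase (-0.39 ± 0.06, 1.01e-05). Of 18 condensin and cohesin genes 7 fell and none rose (38.9%), led by the condensin genes Ncaph (-0.41), Ncapg (-0.41) and Ncaph2 (-0.34). Of 50 DNA replication genes 16 fell and none rose (32%), with a median of -0.14. Pold1, the catalytic subunit of polymerase delta, had -0.49 (adjusted p = 7.03e-05), Rfc4 of the clamp loader -0.53 (0.000142) and Mcm6 of the replicative helicase -0.24 (0.000197). The lists differ in their medians, and that difference was not tested.

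Regulators of the cell cycle were read in the same way. Of 23 genes of B-MYB, MuvB, E2F, NF-Y and pocket proteins 4 fell and 1 rose with isoliquiritigenin (21.7%, against 26.5% of all genes called). Mybl2, which encodes B-MYB, fell by 0.56 (SE 0.11, adjusted p = 0.00045), from 23.2, 23.0 and 23.1 CPM to 15.0, 13.3 and 18.7 CPM. E2f7 and Rbl1 fell by 0.35 and 0.34. Of 17 genes of the anaphase-promoting complex and its inhibitor 2 fell, Fbxo5 (EMI1, -0.34) and Anapc2 (-0.19), and 1 rose, Anapc16 (0.24), a share of 17.6% that is also under that of all genes. Of 10 tested G1 cyclins, CDKs and CDK inhibitors 3 fell and 2 rose (50%). Ccnd1 (cyclin D1) fell by 0.39 (SE 0.06, adjusted p = 1.05e-05) and Cdk6 by 0.37, while Cdkn2c, which encodes the CDK4 and CDK6 inhibitor p18, rose by 0.49 (SE 0.08, adjusted p = 3.2e-05). The rest of those called went the other way: Ccnd2 (cyclin D2) rose by 0.26 (adjusted p = 0.00187) and Cdkn2d, a CDK inhibitor gene, fell by 0.30 (0.0178). The median log2 fold change of the 10 genes was -0.0014.

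With SPARC-deficient against wild type fibroblasts, 10 of 50 DNA replication genes fell and none rose, with a median of -0.15. They include Mcm4 (-0.27, adjusted p = 0.00154), Mcm5 (-0.32, 0.00328) and Chaf1a (-0.23, 0.00925). That is 20% called lower, against 4.79% of all genes called lower and 11.5% called in either direction. Of 73 other mitosis genes 3 fell, Kif15, Cenpn and Kif22, a share of 4.11% that lies below the 4.79% of all genes called lower. Against T23 cells alone, 13 of 50 replication genes (26%) and 3 of 73 other mitosis genes (4.11%) fell, where 3.65% of all genes were called lower. With enzalutamide against T23 cells alone, 6 of 73 other mitosis genes rose and 1 fell, a share of 9.59% that lies below the 12% of all genes called. Their median log2 fold change was -0.0016, and 37 of the 73 values were negative. Those with the smallest p were Kif14 (0.33, adjusted p = 0.00241), Aspm (0.28, 0.0027) and Ckap2 (0.28, 0.00678). In the same comparison 3 of 18 condensin and cohesin genes rose (16.7%), Smc1a (0.32), Nipbl (0.31) and Smc3 (0.24), while 3 of 50 replication genes fell and 1 rose (8%). None of the genes on these lists was called with wild type fibroblasts against T23 cells alone.

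**Figure D5:**
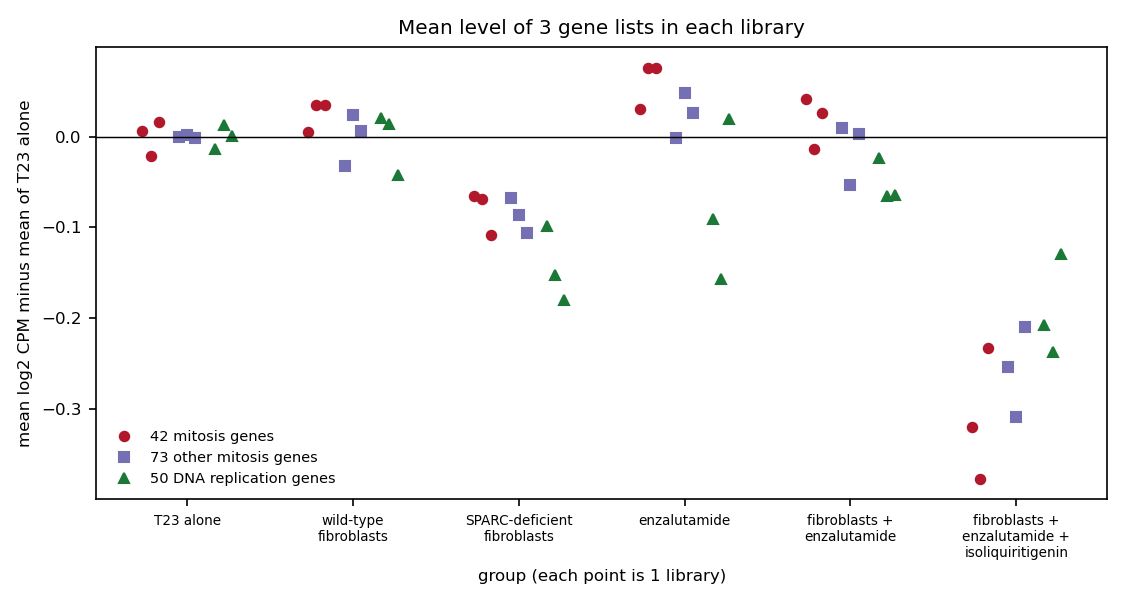
Mean log2 normalised CPM of 42 mitosis genes, 73 other mitosis genes and 50 DNA replication genes in each of 18 libraries, relative to the mean of T23 cells alone. Each point is 1 library, placed by group. With isoliquiritigenin the group mean is -0.31 for the 42 genes and -0.191 for replication genes, and with SPARC-deficient fibroblasts it is -0.081 and -0.144.

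Some of these values rest on counts that neighbouring genes may share. Exons of Ccna2, Cdc20, Cdc25b, Cdca8, Kif20a, Kif4, Nusap1 and Prc1 overlap those of a gene on the opposite strand that has counts here, and the strand setting of the counting is not given in the sources used here. The overlap is 1271 bp for Kif20a with Cdc23 and 832 bp for Kif4 with Pdzd11, both among the genes lower with SPARC-deficient fibroblasts. The pseudogenes Ccnb1-ps and Ccnb2-ps held means of 2.4 and 2.0 counts, against 872.6 and 1464.5 in Ccnb1 and Ccnb2.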

How the data were processed

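The authors deposited raw counts per gene for each of the 18 libraries, made, per the submitters' processing notes, with STAR 2.6.1d, featureCounts 2.0, cutadapt 2.9 and DESeq2 (no version named) on build GRCm38. The annotation release and strand setting are not given in the sources used here. Per the labels' protocols, total RNA was captured by poly(A), made into stranded libraries and run on a NextSeq 550. Symbols, coordinates and exon lengths are from GENCODE M21; 260 of 55487 genes without a symbol held 0.0055% of counts.

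Counts were filtered (edgeR filterByExpr, minimum count 10; 13600 genes), TMM-scaled and modelled with edgeR 4.0.16 (R 4.3.3), using quasi-likelihood with 6 group means over 18 libraries. The biological coefficient of variation was 7.03%, and 12 residual degrees of freedom remained. Tests are two-sided quasi-likelihood F tests with Benjamini-Hochberg adjustment over all 13600 genes; a gene was called, and "rose" or "fell" is written, at an adjusted p under 0.05. The SE is the size of the log2 fold change divided by √F. CPM are TMM-normalised. Log2 CPM used a prior count of 2. The script was tested on simulated data, with few genes changed, in the isoliquiritigenin group. There it called 4% of 1.15-fold, 40.8% of 1.25-fold and 81.6% of 1.5-fold changes, so small changes were mostly missed in the simulation. With isoliquiritigenin 26.5% of all genes were called, unlike in the simulation, so these shares do not carry over to that comparison. The alternatives were RLE scaling, DESeq2 1.42.0, no filter, only the groups compared, a replicate block, the numbering series as a term, each library left out and, added after seeing the data, the first numbering series only.

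The members and lists were chosen with earlier results of these data known. Per-library values are given for the 6 called members with the smallest p in a comparison and for 1 or 2 members per role with the highest level per kb, and other values were added after they were seen. Of each list up to 3 called genes with the smallest p are named, with Mybl2's values, Ccnd2 and Cdkn2d added after they were seen. Depth was 16.1 to 26.7 M counts. A gene without counts could have up to 3 counts; no member was near this. Replicates differed by more than sampling noise, with a chi-square over its degrees of freedom of at least 2.54. It was 575.4 and 583.4 for the pairs with replicate 2 of enzalutamide without fibroblasts, and at most 12.54 for the others.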

Additional observations from a re-analysis of the deposited data

How the results depend on the processing

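No member called in any comparison reversed its direction under any alternative. With isoliquiritigenin the count of lower mitosis genes was 39 and ran from 30 to 40 over the left-out libraries, and it was 40 by DESeq2, 37 without a filter and 32 when the numbering series was a term of the model. With SPARC-deficient against wild type fibroblasts the count of 8 ran from 2 to 10 over left-out libraries. Against T23 cells alone the count of 3 ran from 0 to 5, and was 9 with only the groups compared in the fit. The single call with enzalutamide in co-culture ran from 0 to 1, and was 0 when the numbering series was a term and 0 in the first numbering series only, an alternative added after seeing the data. Fibroblasts under enzalutamide gave 2 calls without a filter, both lower, and 0 to 1 over left-out libraries, against 0. The interaction gave 1 call without a filter, against 0. The cause of these moves was not tested.

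Replicate numbers did not pair the libraries: same-number correlations ran from -0.144 to 0.098, and in 0 of 15 pairs of groups were all above 0.1. With a replicate block the counts of mitosis genes were 0 for wild type fibroblasts, 8 and 3 for SPARC-deficient fibroblasts against wild type and against T23 cells alone, 5 for enzalutamide, 1 for enzalutamide in co-culture, 0 for fibroblasts under enzalutamide, 37 for isoliquiritigenin, 0 for the interaction and 38 for any difference among groups. The block ended the isoliquiritigenin calls of Ccnf (adjusted p = 0.0544) and Cdc20 (0.0515).

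Over all genes, wild type fibroblasts against T23 cells alone gave 70 calls, 148 by DESeq2, 165 without a filter, 157 without replicate 2 of enzalutamide, 336 with only those groups in the fit and 11 to 157 over left-out libraries. SPARC-deficient fibroblasts gave 1325 against T23 cells alone, 2188 with only those groups and 743 to 1724 over left-out libraries, and 1566 against wild type, 857 to 2085 over left-out libraries. Enzalutamide gave 1636, 740 with only its groups and 901 to 1710 over left-out libraries. Enzalutamide in co-culture gave 977, 214 with the series term, 168 in the first series and 550 to 1423 over left-out libraries. Fibroblasts under enzalutamide gave 283, 438 by DESeq2, 541 without a filter, 56 with only those groups, 11 with the series term, 6 in the first series and 83 to 419 over left-out libraries. The interaction gave 3, 8 by DESeq2, 99 without a filter and 0 to 12 elsewhere. Any difference among groups gave 7379, and 4804 with the series term.

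The lowest count of a mitosis gene in any library was 165, in Cdc25c, whose SE of 0.10 was the largest of the 42 with isoliquiritigenin. A gene that did not pass is not shown to be unchanged.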
